A study of Sus scrofa with 22 samples.

Results

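Cell division and DNA replication genes were followed in the jejunal mucosa, the lining of the middle small intestine, of Ossabaw pigs, which readily become obese and serve in metabolic research. The set was a list of 41 genes, and its members were the genes whose symbol stands in the deposited count files. This held for 31 of the 41, out of 24358 genes in each file. All 31 passed the filter on low counts, along with 13626 genes in all. The members divide into 20 genes of mitosis and 11 of DNA replication. Another 5 listed genes (CDK1, BUB1, GINS1, PRC1 and RACGAP1) were found only by their identifier through a table of gene names and are given separately. The remaining 5 (MKI67, CCNA2, AURKA, MCM5 and RRM2) were not matched and are not analysed here.

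The study fed pigs for 6 months either a Western pattern or a heart healthy pattern, with or without atorvastatin, a drug that inhibits cholesterol synthesis. Each of the 22 libraries came from a separate pig. The HHD group (7 pigs) ate the heart healthy pattern, based on unsaturated plant oils, whole grain, fruit and vegetables and high in fibre, with fish oil capsules of 1000 mg and no drug. The HHD_S group (8 pigs) ate the same pattern with the same capsules and took atorvastatin daily, 20 mg over the opening 3 months and 40 mg from then on. The WD_S group (7 pigs) ate the Western pattern, high in butter fat, in cholesterol and in refined carbohydrate, without fish oil capsules, and took atorvastatin in the same doses. Both patterns supplied 38% of energy as fat, 47% as carbohydrate and 15% as protein. WD_S and HHD_S therefore differ in diet together with the fish oil capsules, with the drug in both, and HHD_S and HHD differ in the drug with diet and capsules in common. WD_S and HHD differ in diet, capsules and drug. WD_S is taken to carry the drug because each sample's diet label says so, whereas the text of the series gives the matching abbreviation to pigs without it. A Western group without the drug was not analysed here, and which pigs were boars or gilts is not in the labels.

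Total counts ran from 15316437 to 31564022 per library, and the lowest count of any member in any library was 44. The libraries carry pool 3 or pool 4 in their file names. HHD had 5 libraries in pool 3 and 2 in pool 4, HHD_S had 5 and 3, and WD_S had 3 and 4. Enterocyte markers, which define the absorptive lining, were high in every library, with a summed level of 27176 to 92546 CPM (a gene's count scaled to the size of its library) over 16 genes. The tissue is bulk mucosa, so fewer dividing cells and less RNA of these genes per cell cannot be told apart.

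The intestinal lining is renewed from crypts, where stem cells and their transit-amplifying daughters divide before their progeny move up the villus. Immune cells in the tissue below can divide too. Genes of the replication machinery are mostly transcribed from the G1/S boundary under E2F factors, and genes of mitosis later, in G2 and M, under the MYBL2 and FOXM1 complexes. RNA of these genes is therefore low in resting cells, and in a tissue it is commonly read as a measure of how many cells are cycling.

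A member score, the mean over the 31 genes of log2 CPM centred per gene, ran from -0.68 in library WD_S 3 to 0.71 in HHD_S 7, a 2.64-fold range. HHD 7 stood next to the top at 0.68. WD_S 3 was the lowest of all libraries for 16 of the 31 members and among the lowest 3 for 27. HHD_S 7 was the highest for 16 members and HHD 7 for 11, and both lay above the median of the libraries for all 31. These 3 libraries stood apart from the rest before any comparison was made. They came from 3 different groups, and all 3 were in library pool 3.

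**Figure D1:**
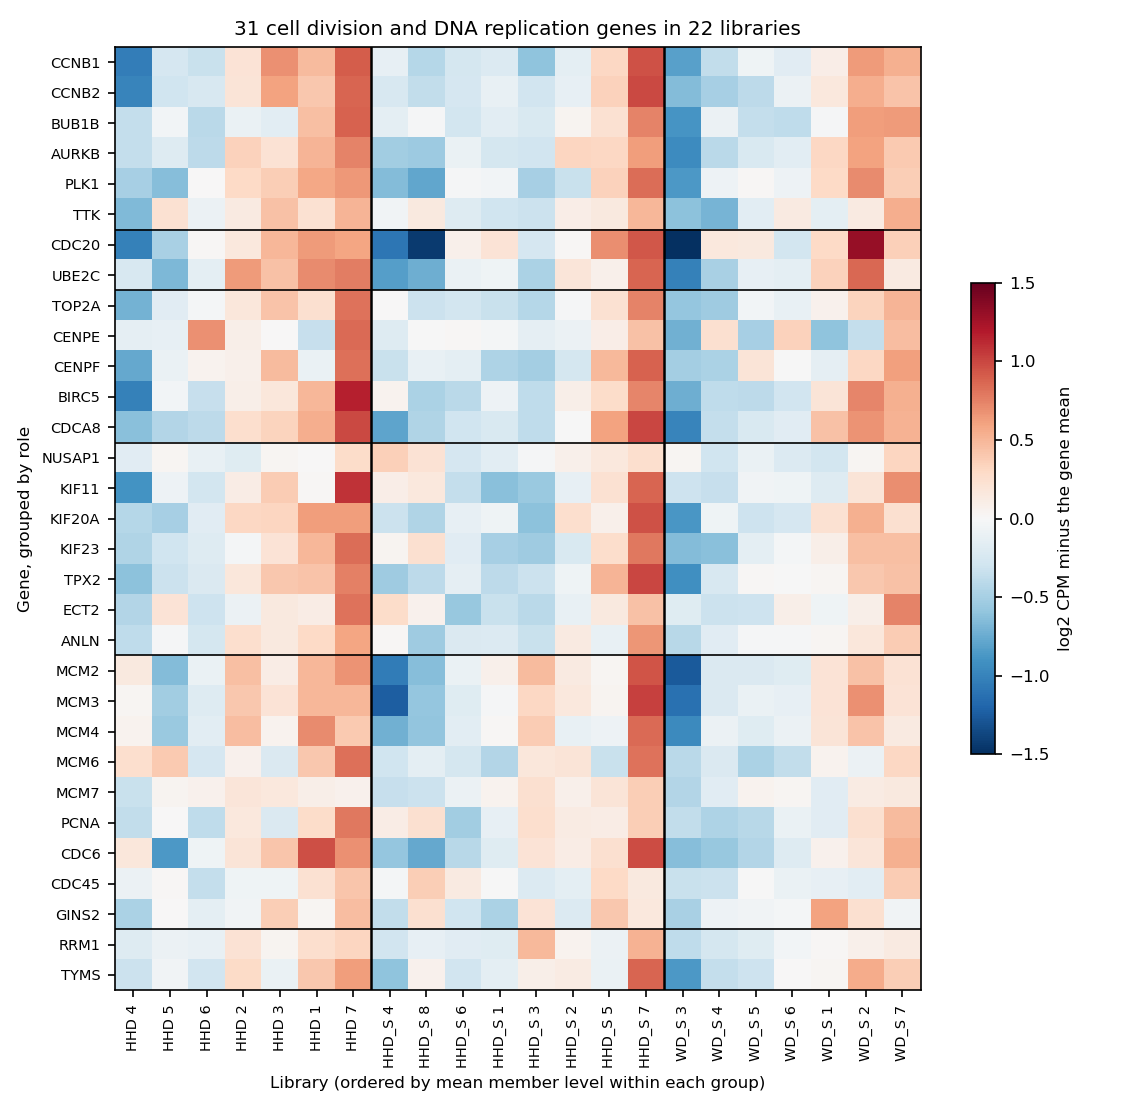
Each tile is log2 CPM of a gene (vertical, grouped by role) in a library (horizontal, ordered within each group by the member score) minus that gene's mean over 22 libraries, with red above and blue below the mean. The columns of HHD 7 and HHD_S 7 are red for nearly every gene and that of WD_S 3 is blue, while each of the 3 groups runs from blue to red.

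The group ranges of the score overlapped. Group means were 0.09 ± 0.38 in HHD (SD, n = 7), -0.03 ± 0.34 in HHD_S (SD, n = 8) and -0.06 ± 0.38 in WD_S (SD, n = 7), so they lay closer together than the SD within any group. In HHD the score had a lowest value of -0.41, a median of 0.17 and a highest of 0.68. In HHD_S the same values were -0.33, -0.17 and 0.71. In WD_S they were -0.68, -0.10 and 0.39. The highest pig of HHD_S and the highest of HHD were nearly level, and the pigs of all 3 groups mixed below them. The summed CPM of the members ran from 600 to 1218 in HHD, from 653 to 1233 in HHD_S and from 511 to 997 in WD_S.

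Among the genes that drive entry into mitosis, CCNB1 encodes cyclin B1, which activates CDK1 (chromosome 16, 47338239 to 47348385, RefSeq gene span on Sscrofa11.1, as for the genes that follow). CCNB1 had a lowest, median and highest level of 7.50, 17.8 and 29.1 CPM in HHD, 10.2, 13.6 and 30.0 CPM in HHD_S, and 8.76, 14.8 and 24.0 CPM in WD_S. HHD 4 was the lowest pig and HHD_S 7 the highest, and each group spanned most of the common range. The log2 fold change of CCNB1 was 0.11 (SE 0.26) in WD_S against HHD_S and -0.13 (SE 0.26) in HHD_S against HHD. PLK1 encodes polo-like kinase 1, which acts in spindle assembly and mitotic exit (chromosome 3, 22537814 to 22550901). PLK1 stood at 11.6, 22.1 and 28.3 CPM (lowest, median, highest) in HHD, at 10.5, 15.9 and 32.3 CPM in HHD_S, and at 9.90, 18.2 and 29.4 CPM in WD_S. The 3 lowest values of the groups were close together and so were the 3 highest. Its log2 fold change was 0.22 (95% interval -0.28 to 0.73) in WD_S against HHD_S and -0.16 (-0.67 to 0.34) in HHD_S against HHD.

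Mitotic exit was represented by CDC20, an activator of the anaphase-promoting complex, and UBE2C, the ubiquitin-conjugating enzyme of that complex. CDC20 (chromosome 6, 167886266 to 167890587) varied most of all members between pigs, 7.13-fold, from 3.48 CPM in WD_S 3 to 24.8 CPM in WD_S 2. Both extremes of CDC20 were thus pigs on the same diet and drug. Its lowest, median and highest levels were 4.94, 11.1 and 15.6 CPM in HHD, 3.69, 10.4 and 19.0 CPM in HHD_S, and 3.48, 11.1 and 24.8 CPM in WD_S. The log2 fold change of CDC20 was 0.25 in WD_S against HHD_S, with a 95% interval of -0.46 to 0.96, the widest of any member in that comparison. UBE2C (chromosome 17, 48018403 to 48021542) stood at 12.4, 26.7 and 33.5 CPM in HHD, 11.1, 18.6 and 35.9 CPM in HHD_S, and 9.74, 18.1 and 35.6 CPM in WD_S. The median of HHD was the highest of the 3, but the highest pigs of HHD_S and WD_S exceeded every pig of HHD. UBE2C had a log2 fold change of -0.25 (SE 0.25) in HHD_S against HHD.

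**Figure D2:**
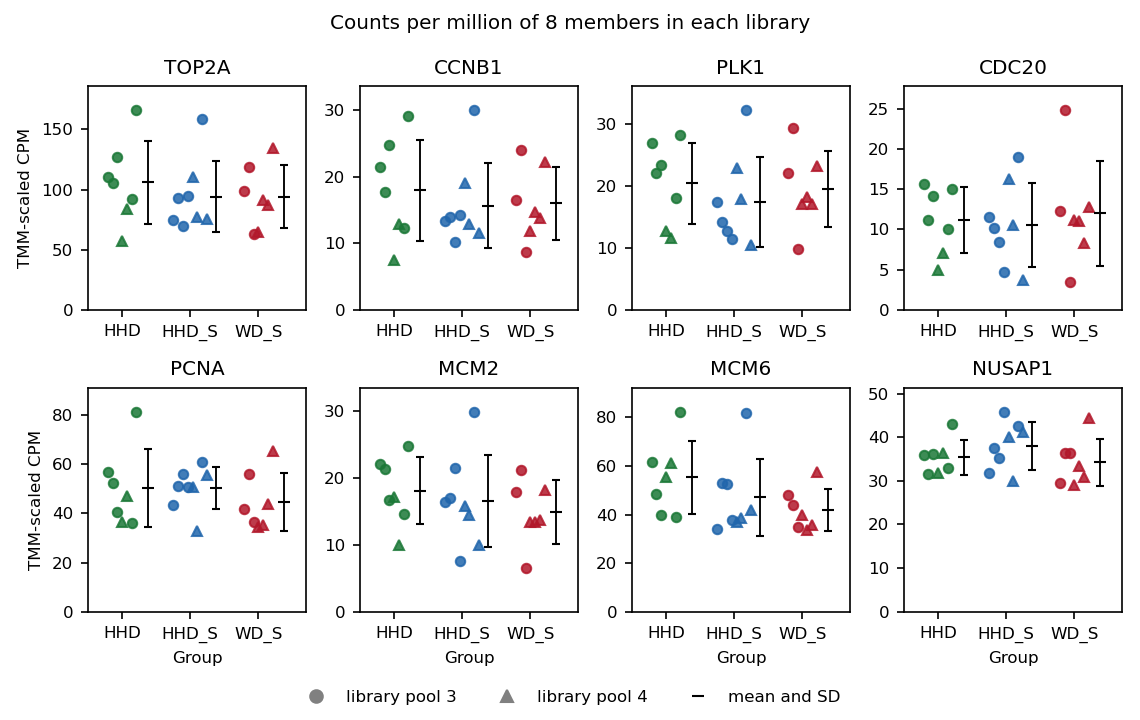
TMM-scaled CPM (vertical, linear from 0) of 8 members in each library, by group (horizontal), with circles for pool 3, triangles for pool 4 and a bar for the group mean and SD. The points of the 3 groups overlap for each gene, and NUSAP1 has a much narrower spread than CDC20.

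TOP2A encodes topoisomerase II alpha, which untangles sister chromosomes (chromosome 12, 22001300 to 22028452). TOP2A had a lowest, median and highest level of 57.5, 106 and 166 CPM in HHD, 70.0, 85.3 and 158 CPM in HHD_S, and 63.3, 91.5 and 134 CPM in WD_S. HHD held both the lowest pig, HHD 4, and the highest, HHD 7. TOP2A averaged 106 ± 34.4 CPM in HHD (SD, n = 7), 94.2 ± 29.2 CPM in HHD_S (SD, n = 8) and 94.1 ± 26.1 CPM in WD_S (SD, n = 7). Its log2 fold change was 0.06 (-0.37 to 0.48) in WD_S against HHD_S and -0.13 (-0.55 to 0.29) in HHD_S against HHD, intervals that reach down to 0.683-fold and up to 1.40-fold. CENPE, a kinetochore motor that moves chromosomes to the spindle equator (chromosome 8, 117888968 to 117965325), stood at 30.4, 39.0 and 69.7 CPM in HHD, 34.0, 38.2 and 52.4 CPM in HHD_S, and 23.5, 30.3 and 53.3 CPM in WD_S. The ranges of CENPE overlapped, with the lowest pig in WD_S and the highest in HHD. The log2 fold change of CENPE was -0.36 (SE 0.22) in WD_S against HHD.

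NUSAP1, a spindle protein that bundles microtubules (chromosome 1, 129992797 to 130065641), was the steadiest member. NUSAP1 stood at 31.5, 35.9 and 43.1 CPM in HHD, at 29.9, 38.7 and 45.8 CPM in HHD_S, and at 29.0, 33.4 and 44.4 CPM in WD_S. Its whole range was 1.58-fold. Unlike most members, NUSAP1 was highest in HHD_S 4, a library with a low member score of -0.33. Its log2 fold change was -0.14 (SE 0.11) in WD_S against HHD_S and 0.11 (SE 0.11) in HHD_S against HHD.

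Among the replication genes, MCM2 and MCM6 encode subunits of the helicase that unwinds DNA at the fork. MCM2 (chromosome 13, 72630378 to 72651270) stood at 9.91, 17.2 and 24.8 CPM (lowest, median, highest) in HHD, 7.55, 16.1 and 29.9 CPM in HHD_S, and 6.53, 13.8 and 21.1 CPM in WD_S. WD_S 3 was the lowest pig and HHD_S 7 the highest. MCM6 (chromosome 15, 15923638 to 15978587) stood at 38.9, 55.3 and 82.3 CPM in HHD, 34.1, 40.2 and 81.7 CPM in HHD_S, and 33.5, 40.0 and 57.6 CPM in WD_S. The medians of both atorvastatin groups lay near the lowest pig of HHD, and the ranges overlapped. MCM6 ranked first of the members by p in WD_S against HHD, with a log2 fold change of -0.37 (95% interval -0.77 to 0.04, adjusted p = 0.9997 by edgeR's quasi-likelihood test with Benjamini-Hochberg adjustment).

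PCNA encodes the sliding clamp of DNA polymerase (chromosome 17, 14137746 to 14142584). PCNA stood at 36.0, 47.1 and 81.3 CPM in HHD, 33.0, 51.0 and 60.7 CPM in HHD_S, and 34.3, 41.9 and 65.4 CPM in WD_S. The highest pig, HHD 7, stood well clear of the other PCNA values. CDC45 and GINS2 complete the active helicase. CDC45 (chromosome 14, 51133111 to 51158604) stood at 13.9, 17.1 and 23.7 CPM in HHD, 15.5, 18.6 and 23.0 CPM in HHD_S, and 14.2, 16.3 and 23.3 CPM in WD_S, a 1.70-fold range in all. CDC45 ranked first of the members by p in WD_S against HHD_S, with a log2 fold change of -0.19 (95% interval -0.44 to 0.06, adjusted p = 0.999 by edgeR's quasi-likelihood test with Benjamini-Hochberg adjustment). GINS2 (chromosome 6, 3218655 to 3252740) stood at 12.5, 17.4 and 23.9 CPM in HHD, 12.5, 17.1 and 22.9 CPM in HHD_S, and 12.4, 16.8 and 26.3 CPM in WD_S. For GINS2 the lowest values of the 3 groups were all but equal.

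The other members overlapped likewise. Whole ranges ran from 1.75-fold for MCM7, another helicase subunit, to 4.77-fold for MCM3 and 4.53-fold for BIRC5 (survivin), which with AURKB and CDCA8 forms the chromosomal passenger complex. For all 31 members the ranges of any pair of groups overlapped. The SD between pigs of log2 CPM, with group and pool means removed, had a median of 0.46 over the members and of 0.30 over all genes tested. It was above the median of all genes for 27 of the 31, and above that of genes within 0.5 log2 units of the same level for 28.

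WD_S against HHD_S compared the dietary patterns, capsules included, in pigs that all took atorvastatin. No member passed an adjusted p of 0.05 by edgeR's quasi-likelihood test with Benjamini-Hochberg adjustment, as 0% of all 13626 genes did. None had an unadjusted p under 0.05 either, against 2.92% of all genes. By the other tools, DESeq2 and limma, no member was called in this comparison or the next pair. Fold changes were positive for 17 of the 31, where the share over all genes was 47.1%. The median log2 fold change was 0.02 over the members and -0.01 over all genes. Members ran from -0.19 (CDC45) to 0.25 (CDC20). The outer limits of the members' 95% intervals were 0.664-fold and, for CDC20, 1.95-fold, and other members had narrower intervals, such as 0.739-fold to 1.04-fold for CDC45. Mitosis members were positive in 14 of 20 and replication members in 3 of 11. Leaving out a library moved the median over a range that included 0, from -0.10 without WD_S 7 and -0.07 without WD_S 2 to 0.15 without HHD_S 7 or without WD_S 3. It was also slightly negative without HHD 4 or any of HHD_S 1, 3, 4, 6 and 8. Without the pool term it was -0.05 with 11 of 31 positive, with only the 2 groups in the fit -0.03, and with total counts in place of TMM -0.01.

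The comparison of HHD_S with HHD addressed atorvastatin on the heart healthy pattern. No member passed the adjusted threshold by the same test (0% of all genes did), and none had an unadjusted p under 0.05 (1.81% of all genes). Only 5 of the 31 had positive fold changes, against 52.6% of all genes, with a median log2 fold change of -0.09 against 0.01. Those 5 were NUSAP1, CDC45, PCNA, CDC20 and MCM7, and the highest of them was 0.11. The most negative was UBE2C at -0.25. The members vary together between pigs, so their common sign is not 31 separate observations. The median moved with single pigs: it was 0.02, with 18 of 31 positive, without HHD 7, and -0.25 without HHD_S 7. Some marker lists of other cell types were also negative throughout, though not every list was. Those negative throughout included 9 of 9 plasma cell markers (median log2 fold change -0.14), 8 of 8 goblet cell markers (-0.36), 9 of 9 smooth muscle markers (-0.15) and 9 of 9 fibroblast markers (-0.29). None of these passed the adjusted threshold, and their part in the result was not tested.

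WD_S against HHD differs in diet, capsules and drug at once and shares its samples with the other comparisons. No member passed the adjusted threshold (0.00734% of all genes did, which is the single gene ABCG1, a sterol exporter), and none had an unadjusted p under 0.05 (3.41% of all genes). Positive fold changes were seen in 4 of 31 members, CDC20, PLK1, GINS2 and CDCA8, against 49% of all genes. The median log2 fold change was -0.07, from -0.37 (MCM6) to 0.26 (CDC20). Without WD_S 3 the median was 0.08 and 23 of 31 were positive, and without HHD 7 it was 0.02 and 21 were positive. In a test for any difference among the 3 groups no member passed the adjusted threshold (0.00734% of all genes did) or had an unadjusted p under 0.05 (2.13% of all genes).

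**Figure D3:**
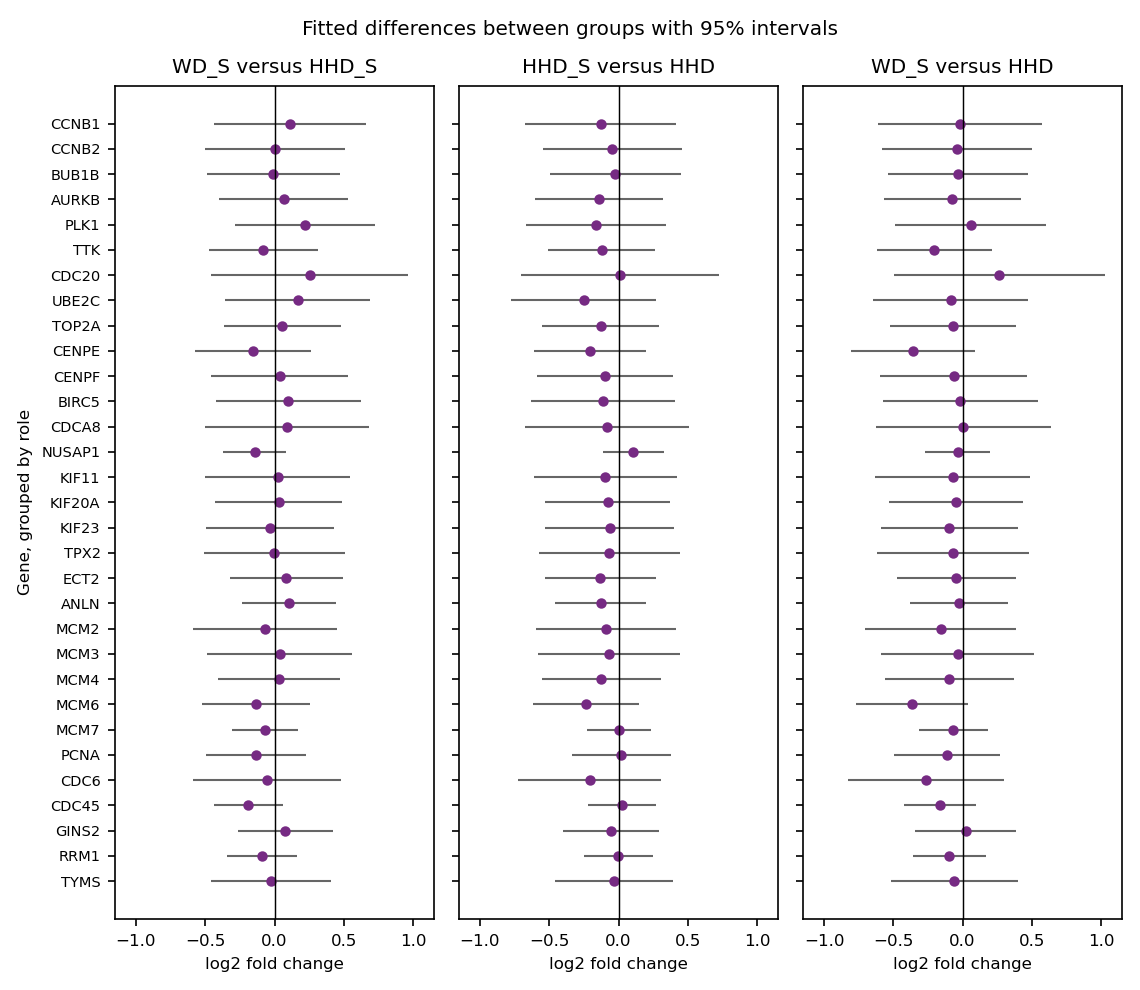
Points are fitted log2 fold changes (horizontal) of each member (vertical, grouped by role) in 3 comparisons from edgeR, and lines are 95% intervals. Each interval contains 0, and most points of HHD_S against HHD lie slightly to the left of it, around the median of -0.09.

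Fitted levels also leaned to one side between the library pools, with no member past the adjusted threshold (0% of all genes passed). With group in the model, 29 of the 31 members were lower in pool 4 than in pool 3, with a median log2 difference of -0.22, while 49.9% of all genes were higher in pool 4. The members vary together, so these are not 29 separate observations. UBE2C was the only member with an unadjusted p under 0.05, at a log2 difference of -0.50, where 4.42% of all genes passed that level and 2.29% were lower. Its adjusted p was 0.916 by edgeR's quasi-likelihood test with Benjamini-Hochberg adjustment. The exceptions were CENPE at 0.13 and CDC45 at 0.17. Of 56 other replication genes, 7 had an unadjusted p under 0.05, all lower in pool 4. The log2 difference was also negative for markers of several cell types. This held for 10 of 12 crypt stem cell markers (median log2 difference -0.31, 4 with an unadjusted p under 0.05), 7 of 9 plasma cell markers (-0.22, 2 with an unadjusted p under 0.05), 7 of 8 goblet cell markers (-0.26), 9 of 9 fibroblast markers (-0.26) and 8 of 8 endothelial markers (-0.31). Their part in the result was not tested.

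Within the pools the drug comparison had opposite signs. In pool 3 alone the median log2 fold change of HHD_S against HHD was -0.28, with 1 of 31 members positive. In pool 4 alone it was 0.21, with 26 of 31 positive. TOP2A was at -0.31 in pool 3 and 0.32 in pool 4, and CCNB1 at -0.37 and 0.50. MCM6 was negative in both, at -0.08 in pool 3 and -0.57 in pool 4 (unadjusted p = 0.025 and adjusted p over 0.99 by edgeR's quasi-likelihood test in pool 4). HHD had only HHD 4 and HHD 5 in pool 4, with member scores of -0.41 and -0.21.

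Tested directly, gene by gene, the difference of that contrast between pools passed for no member (0% of all genes passed the adjusted threshold), and none had an unadjusted p under 0.05 (2.16% of all genes). The fitted difference, pool 4 minus pool 3, was positive for 30 of 31 (51.7% of all genes), with a median of 0.47. It was largest for CDC20 at 1.04 (95% interval -0.50 to 2.59) and negative only for MCM6 at -0.51. Here too the members vary together, so their common sign is not 31 separate observations. WD_S against HHD also split by pool, with medians of -0.26 in pool 3 and 0.21 in pool 4. The smallest p of a member there was that of CENPE in pool 3, at a log2 fold change of -0.87. Its unadjusted p was 0.0037 and its adjusted p 0.99997 by edgeR's quasi-likelihood test, and in pool 4 CENPE was at 0.31. For WD_S against HHD_S the medians were -0.09 and 0.07. There CENPE was the only member whose difference between pools had an unadjusted p under 0.05, where 0.756% of all genes did. That difference was 0.71, with an adjusted p of 0.9999 by edgeR's quasi-likelihood test with Benjamini-Hochberg adjustment.

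While the groups did not separate, the members moved together from pig to pig. The correlations that follow are descriptions over 22 libraries, on log2 CPM with group and pool means removed unless stated. Their points share library and scaling. Over the 465 pairs of members the median Pearson r was 0.68, and 360 pairs (77.4%) exceeded 0.5. Over all pairs of tested genes the median was -0.0025 and 7.50% exceeded 0.5. The value was 0.74 in pool 3 and 0.60 in pool 4, and 0.71, 0.70 and 0.84 within HHD, HHD_S and WD_S. Without the lowest library and the 2 highest it was 0.51, so the pigs in between also ranked alike, less tightly.

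Mitosis genes formed the tighter block, with a median r of 0.81 over 190 pairs. Replication genes had 0.63 over 55 pairs, and pairs across the blocks 0.61. The closest pair of all was MCM2 with MCM3 (r = 0.98), followed by the cyclins CCNB1 and CCNB2 (0.98) and by MCM2 with MCM4 (0.97). MCM6, a subunit of the same helicase, was looser, with r of 0.55 to 0.56 with MCM2, MCM3 and MCM4 and of 0.32 with MCM7. MCM7 had r of 0.72 to 0.78 with MCM2, MCM3 and MCM4. In library HHD_S 4, MCM2 was at 7.55 CPM and MCM3 at 7.81 CPM, the lowest values of that group, while NUSAP1 was at its highest there.

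Against the mean of the other members, the closest genes were TPX2 (r = 0.98), which promotes spindle microtubule assembly, CDCA8 (0.97) and CCNB2 (0.95). AURKB (0.94), CCNB1 (0.93) and TOP2A (0.92) came after them. NUSAP1 (0.40), CENPE (0.48), MCM6 (0.61) and GINS2 (0.61) followed the set least. All 4 negative pairs among the 465 involved NUSAP1, with MCM4, MCM2, MCM3 and CDC20 (r = -0.08 to -0.01). CDC6, a helicase loader, and TOP2A lie 72.8 kb apart on chromosome 12 and had r = 0.65, close to the median of all member pairs.

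The 5 listed genes found by identifier also followed the members. PRC1, which organises the central spindle, had r = 0.97 with the member mean, RACGAP1, its partner in cytokinesis, 0.96, the checkpoint kinase BUB1 0.93, the helicase factor GINS1 0.83 and CDK1 0.65. CDK1 stood at 10.4, 17.9 and 40.7 CPM (lowest, median, highest) in HHD, 11.2, 17.4 and 25.5 CPM in HHD_S, and 12.6, 14.9 and 31.0 CPM in WD_S. HHD again held both extremes. None of the 5 passed the adjusted threshold in any of the 3 comparisons, and the log2 fold change of CDK1 was -0.08 (SE 0.26) in WD_S against HHD_S and -0.12 (SE 0.25) in HHD_S against HHD.

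Of 13595 tested genes that were not members, the 10 most like the member mean were NCAPH (r = 0.98), PRC1, RACGAP1, KIFC1, the unnamed ENSSSCG00000004806, TACC3, CENPA, MYBL2, KIF2C and HMGB2 (0.94). NCAPH is a condensin subunit, KIFC1 and KIF2C are kinesin family proteins of the spindle, TACC3 stabilises spindle fibres and CENPA is the centromeric histone. The other pathway lists followed the members in most of their genes. Of 53 other mitosis genes, 48 had r over 0.5 (median 0.81), and of 56 other replication genes 46 did (median 0.71). The share over all genes that were not members was 8.94%.

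Cell cycle regulators were divided, with 19 of 36 over 0.5. The transcription factors MYBL2 (0.95), FOXM1 (0.93) and E2F1 (0.86) and the CDK1-inhibiting kinase WEE1 (0.86) followed the members from pig to pig. Other transcriptional regulators of the list did not, among them E2F3 (0.01), LIN9 (-0.27) and LIN54 (-0.41). CDK inhibitors differed in sign, with CDKN2C at 0.67, CDKN1A at 0.48 and CDKN1C at -0.35. The CDK inhibitor CDKN1B had r = -0.64, its ubiquitin ligase subunit SKP2 -0.59, and the pocket protein RBL2, which represses cell cycle genes in resting cells, -0.49. The other pocket proteins of the list, RBL1 and RB1, stood at -0.04 and 0.10. GMNN, the geminin gene that blocks relicensing, stood apart from the other replication genes at -0.21, and NCAPG, a condensin subunit like NCAPH, stood at 0.04.

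**Figure D4:**
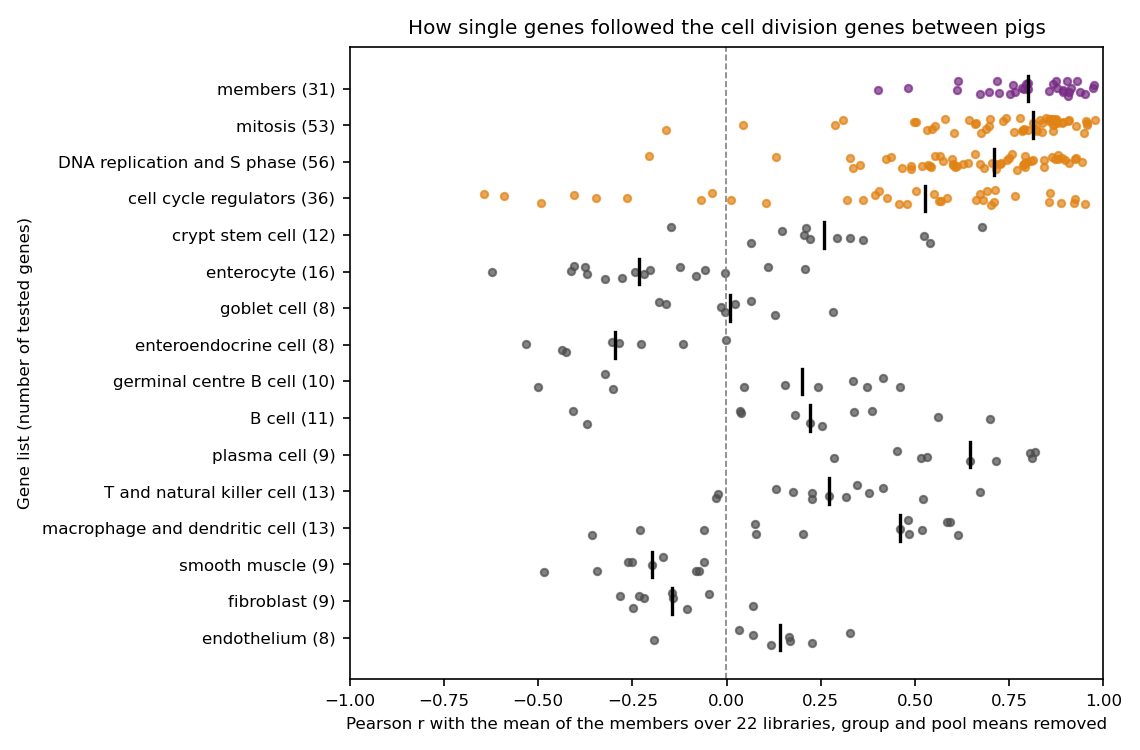
Each point is a gene, placed by its Pearson r (horizontal) with the mean of the members over 22 libraries, group and pool means removed (a member's own value left out), in lists (vertical) of members (purple), other pathway genes (orange) and cell type markers (grey), with black bars at list medians and a dashed line at the median of all other genes. Plasma cell markers (median 0.65) lie closest to the pathway lists, and enterocyte and enteroendocrine markers lie mostly below 0.

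No gene of these other lists passed the adjusted threshold in the 3 comparisons. Of the mitosis list 19 of 53 were positive in WD_S against HHD_S, 12 in HHD_S against HHD and 11 in WD_S against HHD. Of the replication list 20, 25 and 10 of 56 were positive, and of the regulators 17, 15 and 15 of 36. Over all genes the positive shares were 47.1%, 52.6% and 49% in the same order. Many genes of these lists vary together with the members, so their signs are not separate observations. At an unadjusted p under 0.05 there were only RBL1, a pocket protein (log2 fold change -0.22 in WD_S against HHD_S), and CDKN1C, a CDK inhibitor (0.66 in WD_S against HHD), both with adjusted p over 0.99 by edgeR's quasi-likelihood test. Over all genes 2.92%, 1.81% and 3.41% passed that unadjusted level in the 3 comparisons. The mitosis gene with the smallest p in HHD_S against HHD was NCAPG at -0.18, and the replication gene with the smallest p in WD_S against HHD_S was RPA2, of the single-strand binding complex, at -0.22.

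Markers of other cell types moved with the members to unequal degrees. Plasma cells secrete antibody below the epithelium, and 7 of their 9 markers had r over 0.5 with the member mean. The highest were DERL3 (0.82) and MZB1 (0.81), both of the secretory pathway of these cells, and the coactivator POU2AF1 (0.80). JCHAIN, the joining chain of secreted antibody, was at 0.45. The mean of the plasma cell list had r = 0.83 with the member mean. Its summed level ran from 1706 to 3366 CPM in HHD, 1159 to 3315 CPM in HHD_S and 1365 to 2508 CPM in WD_S, and no marker was at 0 in any library. In HHD_S 7 and HHD 7 the plasma cell score was 0.74 and 0.49, and in WD_S 3 it was -0.27. The part of plasma cells in the spread of the members was not tested.

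Crypt stem cell markers followed less closely, with 3 of 12 over 0.5 and r = 0.41 for their mean. Those 3 were OLFM4, EPHB2 (0.54) and CDCA7 (0.53), the last by its name a cell division cycle associated gene. OLFM4, abundant at the crypt base, had r = 0.68 and ran from 288 CPM in HHD_S 4 to 1741 CPM in WD_S 2. LGR5, which marks the stem cells themselves, had r = -0.15. The summed level of the stem cell list was 913 to 2044 CPM in HHD, 435 to 1803 CPM in HHD_S and 673 to 2097 CPM in WD_S, and MEX3A was at 0 in some libraries. Enterocyte markers had r = -0.27 for their mean, and none of 16 exceeded 0.5. The median r of the enterocyte list was -0.23, and FABP1 (0.21) and MTTP (0.11) were its only positive genes. SI, the brush border sucrase-isomaltase, was the most negative of the 16 at -0.62. It was lowest in HHD 7 (3745 CPM) and highest in WD_S 3 (11213 CPM).

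For the remaining lists the r of the mean was 0.55 for macrophages and dendritic cells (4 of 13 genes over 0.5), 0.43 for germinal centre B cells (0 of 10), 0.41 for B cells (2 of 11), 0.36 for T and natural killer cells (2 of 13), 0.14 for endothelium and 0.02 for goblet cells. It was -0.16 for fibroblasts, -0.21 for smooth muscle, -0.27 for red blood cells and -0.37 for enteroendocrine cells. The smooth muscle score was low in both high libraries (-1.14 in HHD 7 and -0.73 in HHD_S 7), and was -0.38 in WD_S 3, the library with the lowest member score. It was lowest of all in HHD_S 8 (-1.25) and also low in HHD_S 4 (-0.66), libraries with low member scores of -0.27 and -0.33. Total counts had r = -0.09 and the TMM factor r = 0.36 with the member score, here with group and pool means left in. The part of these in the spread was not tested.

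TOP2A was set against 12 marker lists, OLFM4, LGR5 and MCM2 in 15 relations over 22 pigs, with two-sided permutation tests and Benjamini-Hochberg adjustment over the 15. These relations used log2 CPM with group and pool means left in, and pigs were permuted across groups and pools. Differences between groups or pools therefore enter them. TOP2A and most plasma cell markers had lower fitted levels in pool 4 than in pool 3. The relation of TOP2A to the plasma cell score had r = 0.74 (permutation p = 0.00013, adjusted 0.00195) and rho = 0.71 (permutation p = 0.00033, adjusted 0.00495). It was 0.60 without the 2 pigs farthest from the median plasma cell score, 0.79 in pool 3 and 0.54 in pool 4. With OLFM4, TOP2A had r = 0.53 (permutation p = 0.0109, adjusted 0.0545) and rho = 0.57 (permutation p = 0.00661, adjusted 0.0331). That relation stood at 0.60 without the 2 farthest pigs, 0.53 in pool 3 and 0.23 in pool 4.

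With LGR5, TOP2A had r = -0.34 (permutation p = 0.122, adjusted 0.292) and rho = -0.26 (permutation p = 0.240, adjusted 0.423), which was -0.03 without the 2 farthest pigs, -0.21 in pool 3 and -0.83 in pool 4. Even with MCM2, a replication member, TOP2A had only r = 0.57 (permutation p = 0.00536, adjusted 0.0402) and rho = 0.59 (permutation p = 0.00492, adjusted 0.0331). That relation was 0.59 without the 2 farthest pigs, 0.63 in pool 3 and 0.27 in pool 4. With group and pool means removed it was 0.52. The other relations had adjusted values of 0.191 or above for r. Among them, the relation with the enterocyte score had r = -0.22 over all pigs and -0.70 without the 2 farthest pigs. That with the goblet cell score had r = 0.02 over all pigs, 0.36 in pool 3 and -0.74 in pool 4.

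**Figure D5:**
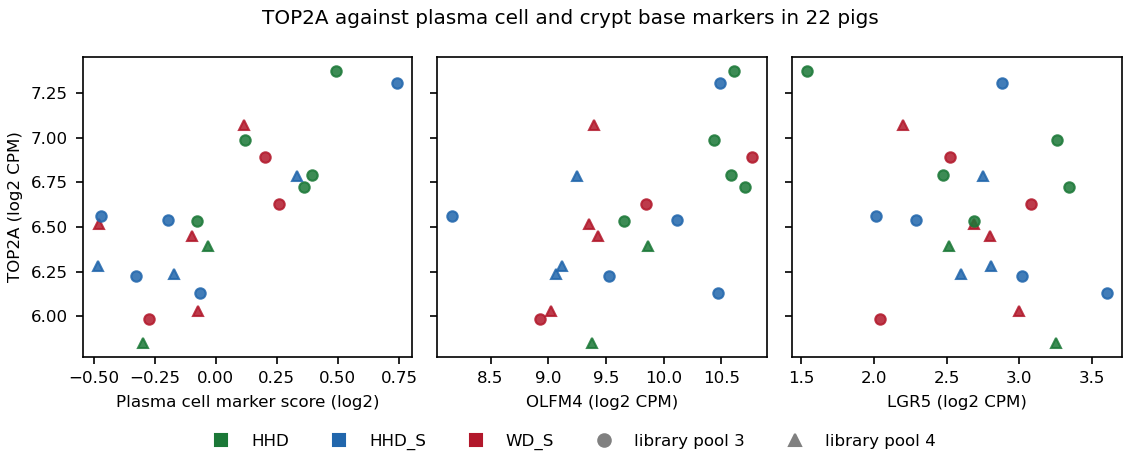
log2 CPM of TOP2A (vertical) against the mean centred log2 CPM of 9 plasma cell markers, log2 CPM of OLFM4 and log2 CPM of LGR5 (horizontal), a point per pig, coloured by group and shaped by pool. TOP2A rises with the plasma cell score (r = 0.74) and with OLFM4 (r = 0.53) and falls weakly with LGR5 (r = -0.34), and the 3 groups lie intermixed.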

How the data were processed

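RNA from jejunal mucosa with an RNA quality indicator above 8 was made into TruSeq libraries and sequenced as single reads of 150 bases, per the labels' protocols. The authors used a CLC workbench with the annotated genome Sscrofa11.1, per the labels' protocols. Which settings mapped the reads is not stated there. Per the file headers, each deposited value is a count: the reads placed uniquely in the exons of a gene. Reads that fit several places are absent from unique counts, and no use of strand is stated, so overlapping antisense genes cannot be told apart. Groups came from the diet label, pools from file names, and gene spans from RefSeq (Sscrofa11.1) by symbol. No pair of the 22 libraries agreed within sampling noise (smallest reduced chi-square 25.2 over 231 pairs).

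Differences were tested by edgeR 4.0.16 (R 4.3.3; filterByExpr with a minimum count of 10, TMM scaling, robust quasi-likelihood fit of 3 groups plus library pool, all 22 libraries, 18 residual degrees of freedom, biological coefficient of variation 25.9%). P values were two-sided and adjusted by Benjamini-Hochberg over 13626 genes. CPM are TMM-scaled; log2 CPM for correlations used a prior count of 2. A gene's reads grow with its length, so levels of different genes were not compared. Permutation tests drew 100000 permutations over all 22 libraries, without regard to group or pool. The fit was checked on simulated counts. Alternatives used DESeq2 1.42.0, limma 3.58.1, other scalings, filters and pools, and each library left out.

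The members, lists and tests were chosen with earlier results of these data known. Genes named with levels were TOP2A, CDK1, CCNB1, PCNA and MCM2, the 3 members with the smallest p in each direction of each comparison, and those with the largest and smallest spread; of each other list, genes among the 3 smallest p, and the 10 genes most like the member mean. Other genes were named after their values were seen.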

Additional observations from a re-analysis of the deposited data

Results flagged for a closer look

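In groups of this size a library was singled out where its gap to the nearest library of its group was large against the group's range (Dixon's test at the 95% level). Of 93 sets of a member in a group, 18 were singled out, where chance gives about 1 in 20 (4.65). The members vary together, so these are not 18 separate events.

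HHD_S 7 was the highest of its group in 12 of them. It stood at 158 CPM for TOP2A (next 110), 30.0 for CCNB1 (next 19.1), 18.6 for CCNB2 (next 11.9), 16.9 for BUB1B (next 11.8), 37.3 for KIF11 (next 23.8) and 28.3 for KIF20A (next 17.5). It also stood at 52.4 CPM for CENPE (next 41.5), 81.7 for MCM6 (next 53.0), 29.6 for TYMS (next 17.7), 7.36 for CDC6 (next 4.40), 35.9 for UBE2C (next 22.4) and 21.0 for ANLN (next 14.6). These genes span entry into mitosis, the spindle, cytokinesis and replication.

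HHD 7 was the highest of HHD for NUSAP1 (43.1 CPM, next 36.4) and for ECT2, which activates the contractile ring (29.3 CPM, next 19.2). WD_S 7 was the highest of WD_S for KIF11 (32.9 CPM, next 23.3), CDC45 (23.3 CPM, next 17.8) and ECT2 (27.9 CPM, next 17.7). HHD 4 was the lowest of HHD for MCM7 (42.4 CPM, next 54.9).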

How the results depend on the processing

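No member was called in any of the 3 comparisons under any of 33 alternatives each, 1023 member values per comparison. The smallest adjusted p values were 0.777 (CDC45, WD_S against HHD_S), 0.599 (MCM6, HHD_S against HHD) and 0.548 (MCM6, WD_S against HHD), all by limma with quality weights. Signs changed in 128, 101 and 117 of those values, and 5, 4 and 1 of the 31 members kept their sign throughout. Medians over the members ran from -0.10 to 0.15 for WD_S against HHD_S, from -0.28 to 0.21 for HHD_S against HHD and from -0.26 to 0.21 for WD_S against HHD. Leaving out each library gave -0.10 to 0.15, -0.25 to 0.02 and -0.15 to 0.08.

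Over all genes, the number called for WD_S against HHD_S was 0, against 2 without the pool term, 4 by DESeq2, 1 by limma and 0 to 2 with a library left out. For HHD_S against HHD it was 0, against 1 by DESeq2. For WD_S against HHD it was 1, against 0 in pool 3 alone, 0 in pool 4 alone, 0 with total counts only, 2 by DESeq2 and 0 to 1 with a library left out. The cause of these shifts was not tested. The median pairwise r of the members ran from 0.51 to 0.84 over its alternatives, of which those by pool, group and library were chosen after seeing the data. The promoter comparison was not run. No paired analysis was possible because the replicate numbers were given in accession order and pair no pigs.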

Other observations

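The genes that ran most opposite to the member mean between pigs were chosen after their values were seen and are given as description over 22 libraries. They were RRN3, an initiation factor of RNA polymerase I (r = -0.86), BHLHE41, a clock-related repressor (-0.82), KLHL2 (-0.81), WNT9A, a Wnt ligand (-0.81), RPS6KA5 (-0.81), AGMO, which cleaves ether lipids (-0.81), CDC14B, a phosphatase (-0.80), CYP3A39, a drug-metabolising cytochrome (-0.80), APPL1 (-0.80) and SLC40A1, the iron exporter ferroportin (-0.80).

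Of single genes on the immune cell lists other than plasma cells, CD79B of the B cell receptor had r = 0.70 and NKG7 of cytotoxic lymphocytes 0.67. LYZ, lysozyme, from the macrophage and dendritic cell list, had 0.62, and which cells of the mucosa gave its RNA was not tested. The medians of their lists were lower, at 0.22 for B cells, 0.27 for T and natural killer cells and 0.46 for macrophages and dendritic cells. Each of these lists also held negative genes, such as SPIB (-0.41) and FCER2 (-0.37) of B cells, CD8B (-0.03) of T cells and ITGAX (-0.36) of macrophages. CD79B was scarce, at a mean log2 CPM of 0.34. Within the germinal centre list RGS13 had r = -0.50, against a list median of 0.20. All these single markers were likewise named after their values were seen.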
